A study of Arabidopsis thaliana with 12 samples.

Results

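The interaction of 2 mutations of Arabidopsis thaliana, dxo1-2 and xrn3-8, was measured gene by gene in all 12 of the 12 RNA-seq libraries of the series. The interaction of a gene is its log2 level in the double mutant dxo1-2 xrn3-8, minus that in dxo1-2, minus that in xrn3-8, plus that in the wild type Col-0. A value of 0 means that the log2 change of the double mutant equals both single mutants' log2 changes added up, a value of 1 means a level 2-fold above that sum, and a value of -1 a level 2-fold below it. Of the 37184 gene rows in the count files, 21974 held enough reads to be tested. The 4 genotypes were the double mutant, which carries both alleles, each single mutant, which carries 1 of them, and Col-0, with 3 libraries each, labelled as biological replicates. All were seedlings of 21 days from soil in long days, and libraries were made from total RNA after removal of ribosomal RNA. The series' design text states that growth, extraction, library preparation and sequencing ran in parallel for the 4 genotypes, although the libraries of both single mutants and of Col-0 were first deposited with earlier series. What lesion each allele carries is not given in the sources used here.

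Both genes encode proteins that work at the 5′ end of RNA molecules. DXO1 belongs to the DXO family, whose members are known to remove incomplete or non-canonical caps and, outside plants, to degrade the exposed RNA, while the plant protein is also known as a partner of the cap methyltransferase RNMT1. XRN3 is a nuclear exoribonuclease that degrades uncapped RNA from the 5′ end, among it RNA left downstream of a cleaved poly(A) site and fragments of ribosomal RNA precursors. An interaction on the log2 scale asks whether the fold changes of the mutations multiply, and a gene can interact because the double mutant stands out, because the single mutants stand out, or both.

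The mutated genes themselves were checked first. DXO1 (AT4G17620) had 3.11, 2.97 and 3.13 CPM in dxo1-2 xrn3-8, against 1.53, 1.29 and 1.73 CPM in dxo1-2, 10.4, 9.73 and 9.62 CPM in xrn3-8 and 8.63, 8.92 and 8.93 CPM in Col-0. XRN3 (AT1G75660) had 38.4, 38.1 and 44.1 CPM in dxo1-2 xrn3-8, against 59.1, 59.6 and 58.3 CPM in dxo1-2, 23.0, 21.6 and 20.05 CPM in xrn3-8 and 51.8, 52.1 and 51.4 CPM in Col-0. In each case every library carrying the allele lay below every library without it, as the labels say. Both genes also interacted: the double mutant held more DXO1 RNA than dxo1-2 and more XRN3 RNA than xrn3-8 in every library, with interactions of 0.85 (SE 0.158, adjusted p = 0.00191) and 0.71 (SE 0.106, adjusted p = 0.000394). Whether the remaining reads lie before or after the lesions was not analysed here, so the counts do not say how much functional transcript is left. In the list of 10 genes of 5′-end decay and capping that holds both, no other gene passed the test.

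The libraries read as green shoots in every genotype. The summed level of 5 green leaf genes (RBCS1A, LHCB1.3, LHCA4, FBA2 and GAPA1) was 6396 to 8399 CPM (counts scaled to the library size) in dxo1-2 xrn3-8, 10393 to 12972 CPM in dxo1-2, 10047 to 12980 CPM in xrn3-8 and 13403 to 15354 CPM in Col-0. The 6 root genes summed to at most 0.912 CPM, the 6 flower genes to at most 3.99 CPM and the 3 seed genes to at most 3.84 CPM in a library. The seed sum ranged from 0 to 3.84 CPM in Col-0 and reached at most 0.107 CPM in a mutant library. None of the tested markers had an interaction past the threshold, which covers 5 of 5 leaf, 1 of 6 root, 5 of 6 flower, 2 of 2 phloem and 1 of 2 shoot meristem genes, while none of the 3 seed genes held enough reads to be tested. Since whole seedlings were measured, fewer cells of a type and less RNA per cell cannot be told apart in any of the results. Gene counts per library ranged from 60138933 to 81494915, and plastid-encoded genes took 41.3 to 53.5% of them. That share was 43.7 ± 2.29% in dxo1-2 xrn3-8, 48.0 ± 0.491% in dxo1-2, 51.2 ± 2.22% in xrn3-8 and 51.3 ± 0.465% in Col-0 (SD, n = 3 each), so the double mutant lay 4.15 percentage points (SE 1.88) below the sum of the single changes. The value ranged from -5.27 to -2.98 points when 1 library was left out.

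Roughly 1 gene in 5 departed from additivity. Of 21974 genes tested, 4584 (20.9%) had an interaction at an adjusted p under 0.05 by edgeR's quasi-likelihood F-test with Benjamini-Hochberg adjustment, 2678 (12.2%) above the sum of the single changes and 1906 (8.67%) below it. The median size among them was 0.86 on the log2 scale, and 307 lay at 2 or above and 394 at -2 or below, departures of at least 4-fold. The median over all tested genes was 0.01. The split by sign moved with the scaling. With upper quartile scaling the median of all genes became -0.10 and the calls 2000 positive and 2886 negative, and with the scale taken from nuclear genes alone they were 2479 positive and 2130 negative. The sign of each gene and the sign of each list median given below were the same under these 3 scalings, except that plastid-encoded genes have no value in the fit to nuclear genes alone. With 1 library left out the count ranged from 3419 (without dxo1-2 replicate 1) to 4729 (without dxo1-2 xrn3-8 replicate 3), and 2861 genes, 62.4% of the 4584, were called with the same sign with all libraries and in all 12 fits without 1. Whether reads were counted by strand is not given in the sources used here, which leaves uncertain any gene with an antisense neighbour in the same stretch of DNA, among those named below EARLI1, AT1G13340, ORA47, TAF4B, UNE15, TPX2 (AT1G03780), MAD2, AUR1, KN, CESA4, IRX3, SARD1, CHI-B, ERF109, AT4G12490, BCAT2, LNK2, LUX, BOA, FKF1, BCAT4, SULTR4;2, FLC, CHS and HSP101.

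**Figure D1:**
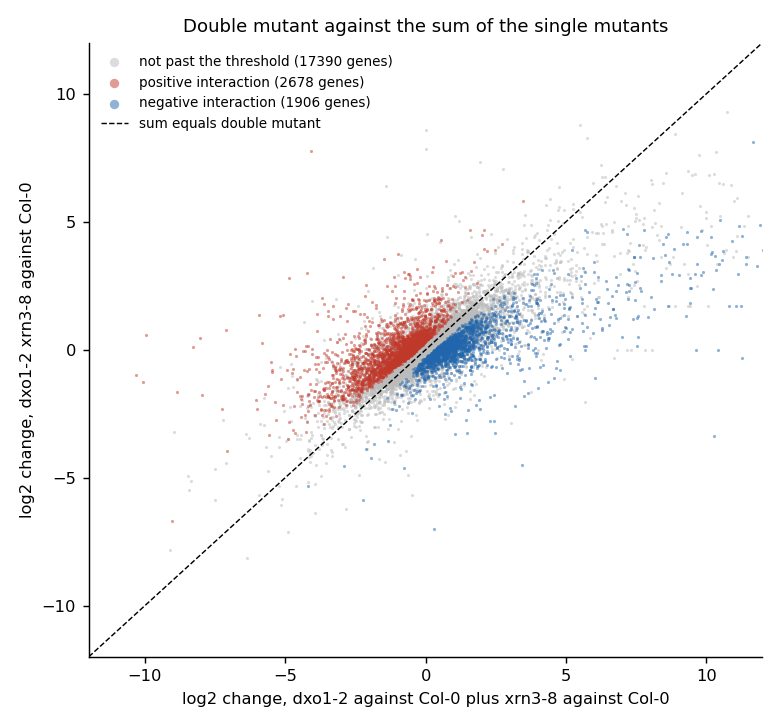
Each point is 1 tested gene; the x axis adds up the log2 changes of dxo1-2 and xrn3-8 against Col-0 and the y axis the log2 change of dxo1-2 xrn3-8 against Col-0, both in log2 units, with colours for positive, negative and uncalled interactions and a line where the axes are equal. Col-0 enters both axes, so the spread along the line is no measure of likeness; the reader should see the 2678 positive genes above the line, the 1906 negative ones below it, and that 45 genes lie outside the limits drawn.

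Very large negative values need their levels beside them. Of the 4584 called genes, 59 had a genotype with no read in all 3 libraries, 46 of them with Col-0 at 0. All 59 were among the 701 genes at 2 or beyond, and 49 of them were among the 394 at -2 or below. The fitted values of these genes depend on the count the fit adds and are no bounds. The pseudogene AT5G35935 shows the form with reads in every library: it had 4.18, 2.52 and 3.81 CPM in dxo1-2 xrn3-8, against 11.7, 12 and 9.05 CPM in dxo1-2, 20.7, 17.5 and 18.6 CPM in xrn3-8 and 0.295, 0.622 and 0.267 CPM in Col-0. Every mutant library lay above every Col-0 library, yet the double mutant lay below both single mutants, and the interaction was -7.20 (SE 0.333, adjusted p = 6.05e-08). Adding the single log2 changes would have put it at 509 CPM and adding the single changes in CPM at 29.5 CPM. The sign seldom depended on the scale: 20 of the 4584 had a departure of the opposite sign on the linear CPM scale. How large the departures were on that scale was not compared over these genes.

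Where the 3 double mutant libraries lay relative to the other 9 divided the interactions into forms. Of 2678 positive genes, 651 had the double mutant above all 9 other libraries, an order of levels that 1606 of all tested genes (7.31%) showed. In a further 284 positive genes both single mutants lay below Col-0 and the double mutant overlapped Col-0, an order that 368 tested genes (1.67%) had. On the negative side, 375 of 1906 genes had the double mutant below all 9 other libraries, against 1207 tested genes (5.49%), and 292 had both single mutants above Col-0 with the double mutant overlapping Col-0, against 397 tested genes (1.81%). The double mutant overlapped Col-0 with 1 single mutant apart in 441 positive and 443 negative genes, against 4164 tested genes (18.9%). In 1143 positive and 718 negative genes its libraries lay elsewhere, against 9395 tested genes (42.8%). Both orders held shares of the called genes, 19.3% and 40.6%, near those of all tested genes. These orders of level are built from the same counts as the interaction, so they describe the calls and do not test them. With 1 library left out, the form with 1 single mutant apart held between 449 and 747 genes, against 884 with all libraries.

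**Figure D2:**
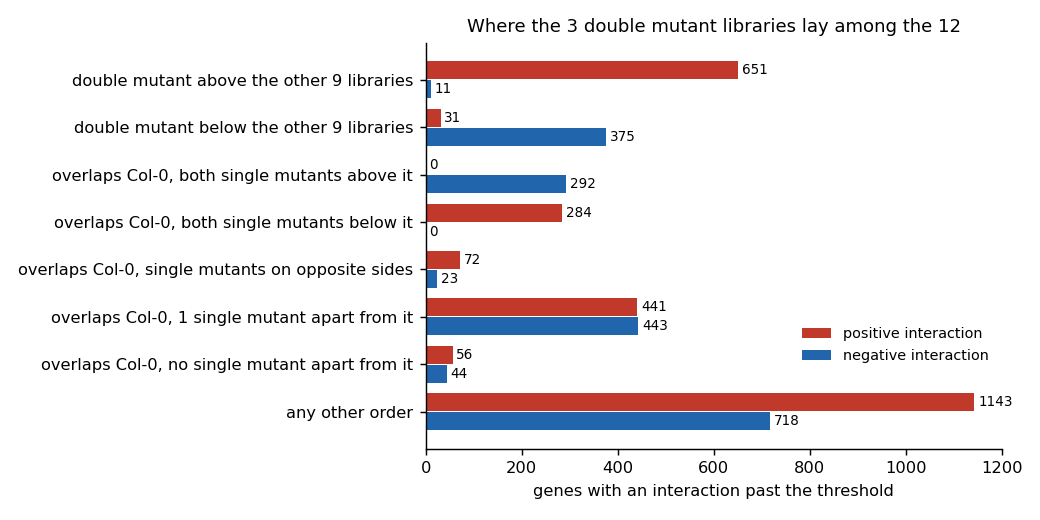
Bars give the number of genes with a positive or negative interaction (x axis, genes) for each order of levels (y axis) of the 3 dxo1-2 xrn3-8 libraries against the libraries of dxo1-2, xrn3-8 and Col-0. The double mutant lay above all others in 651 positive genes and below all others in 375 negative genes, and it overlapped Col-0 with both single mutants on the same side in 284 positive and 292 negative genes.

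Of the 12 highest interactions, EARLI1, RNS1, TI1 and AT2G05540 were highest in the double mutant and lowest in the single mutants. EARLI1 (AT4G12480), a lipid-transfer-like protein of the AZI1 family of systemic immunity, had 27.9, 22.5 and 28.2 CPM in dxo1-2 xrn3-8, against 2.43, 2.50 and 2.94 CPM in dxo1-2, 4.59, 2.85 and 3.66 CPM in xrn3-8 and 12.8, 8.15 and 10.3 CPM in Col-0. Both single mutants lay below Col-0 and the double mutant above it with no overlap, and the interaction was 4.82 (SE 0.260, adjusted p = 2.59e-07). RNS1 (AT2G02990), a secreted ribonuclease induced by phosphate starvation, wounding and senescence, had 30.2, 36.5 and 39.6 CPM in dxo1-2 xrn3-8, against 6.58, 5.70 and 6.97 CPM in dxo1-2, 4.15, 2.19 and 2.60 CPM in xrn3-8 and 12.1, 9.62 and 13 CPM in Col-0. Here too the 3 double mutant libraries were the highest and the single mutants the lowest, for an interaction of 4.43 (SE 0.270, adjusted p = 8.77e-07). TI1 (AT2G43510), a trypsin inhibitor, had 36.3, 39.9 and 34.8 CPM in dxo1-2 xrn3-8, against 5.36, 5.46 and 7.49 CPM in dxo1-2, 6.36, 5.40 and 9.23 CPM in xrn3-8 and 16.8, 8.93 and 16.1 CPM in Col-0, and its interaction was 3.59 (SE 0.322, adjusted p = 1.34e-05). The glycine-rich protein gene AT2G05540, with an interaction of 3.51 (SE 0.287, adjusted p = 9.53e-06), averaged 12.8 ± 0.621 CPM in dxo1-2 xrn3-8, 2.75 ± 0.243 CPM in dxo1-2, 1.57 ± 0.581 CPM in xrn3-8 and 3.83 ± 0.443 CPM in Col-0 (SD, n = 3 each). The double mutant stood above all 9 other libraries in each of these 4 genes.

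A second form among the 12 highest genes was a double mutant at the Col-0 level with both single mutants below it. CRK13 (AT4G23210), a cysteine-rich receptor-like kinase, had 20.0, 19.8 and 17.39 CPM in dxo1-2 xrn3-8, against 5.21, 4.49 and 5.86 CPM in dxo1-2, 7.01, 4.76 and 6.76 CPM in xrn3-8 and 19.4, 15.1 and 22.8 CPM in Col-0. Single mutant libraries of both genotypes lay below all Col-0 libraries, and the double mutant fell within the Col-0 range, so that the double mutant differed from Col-0 by -0.00 (adjusted p = 0.989) while the interaction was 3.51 (SE 0.233, adjusted p = 2.14e-06). ZAT7 (AT3G46090), a zinc-finger repressor of the stress response, had 7.29, 6.77 and 8.69 CPM in dxo1-2 xrn3-8, against 3.75, 2.21 and 3.79 CPM in dxo1-2, 3.61, 2.07 and 2.54 CPM in xrn3-8 and 9.56, 7.86 and 12 CPM in Col-0, with an interaction of 3.06 (SE 0.324, adjusted p = 3.37e-05). AT1G13340, annotated as a regulator of Vps4 activity in the multivesicular body pathway, gave 3.16 (SE 0.335, adjusted p = 3.44e-05). If the single losses in CPM added, the level would fall below 0 in each of these 3 genes, to -7.76 CPM for CRK13.

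NIT2 (AT3G44300), a nitrilase that can turn indole-3-acetonitrile into auxin, was high in the double mutant alone. It had 284, 277 and 336 CPM in dxo1-2 xrn3-8, against 13.3, 18.6 and 26.0 CPM in dxo1-2, 20.6, 13 and 29.7 CPM in xrn3-8 and 18.6, 7.10 and 9.12 CPM in Col-0. The single mutants overlapped Col-0 and each other and passed no test against it, at 0.73 (adjusted p = 0.0939) for dxo1-2 and 0.86 (adjusted p = 0.0609) for xrn3-8, and the double mutant was higher than Col-0 by 4.69 (adjusted p = 2.88e-07). The sum of the single log2 changes would give 35.1 CPM, and the interaction was 3.09 (SE 0.474, adjusted p = 0.000477). ELI3-2 (AT4G37990), a cinnamyl alcohol dehydrogenase induced by pathogens, had 20.7, 30.4 and 42.9 CPM in dxo1-2 xrn3-8, against 1.44, 1.23 and 3.27 CPM in dxo1-2, 13.5, 3.47 and 11 CPM in xrn3-8 and 23.1, 6.32 and 10.9 CPM in Col-0, with an interaction of 4.52 (SE 0.740, adjusted p = 0.000753); xrn3-8 replicate 2 was the low library of its genotype. AMY1 (AT4G25000), a secreted alpha-amylase, gave 3.13 (SE 0.372, adjusted p = 7.54e-05) and XTR6 (AT4G25810), a cell wall xyloglucan endotransglycosylase, 3.06 (SE 0.406, adjusted p = 0.000163). In both the double mutant lay above all other libraries and dxo1-2 was the lowest genotype on average.

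**Figure D3:**
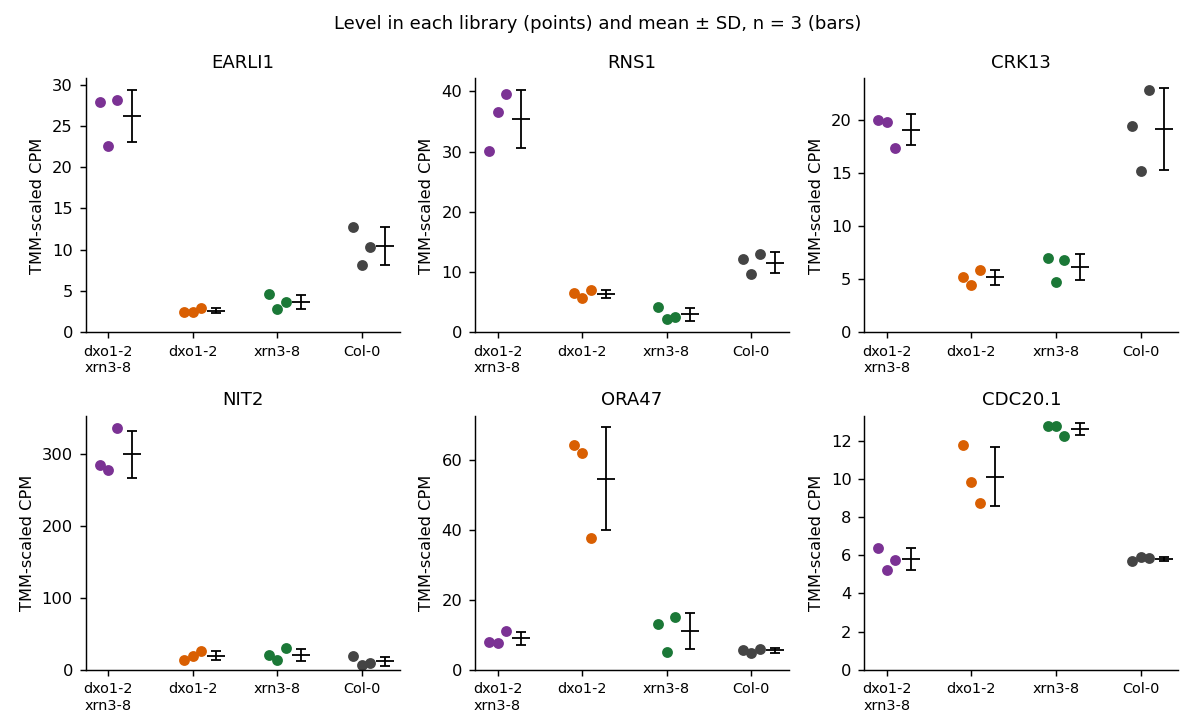
Points give the level of 1 gene in each library (y axis, CPM) for dxo1-2 xrn3-8, dxo1-2, xrn3-8 and Col-0 from left to right, with the mean and SD of 3 libraries. EARLI1, RNS1 and NIT2 were highest in the double mutant, CRK13 was at the Col-0 level in the double mutant and low in both single mutants, ORA47 was high in dxo1-2, and CDC20.1 was at the Col-0 level in the double mutant and high in both single mutants.

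Among the 12 lowest interactions, ORA47 and CBF2 were highest in dxo1-2. ORA47 (AT1G74930), an AP2/ERF factor known to activate jasmonate synthesis genes, had 8.02, 7.66 and 11.1 CPM in dxo1-2 xrn3-8, against 64.1, 62.0 and 37.7 CPM in dxo1-2, 13, 5.20 and 15.1 CPM in xrn3-8 and 5.78, 4.79 and 5.94 CPM in Col-0. The dxo1-2 libraries lay far above the other 9, and the interaction was -3.62 (SE 0.434, adjusted p = 7.94e-05). CBF2 (AT4G25470), a regulator of the cold response, was likewise highest in dxo1-2, with 5.71, 3.72 and 5.79 CPM in dxo1-2 xrn3-8, against 11.3, 12.1 and 9.10 CPM in dxo1-2, 4.36, 1.91 and 4.21 CPM in xrn3-8 and 1.67, 2.19 and 1.99 CPM in Col-0, and an interaction of -1.93 (SE 0.368, adjusted p = 0.00215). AT4G27657, an uncharacterized protein gene whose single mutant libraries all lay above Col-0 with the double mutant overlapping it, gave -2.34 (SE 0.341, adjusted p = 0.000321).

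Others of the 12 lowest were highest in xrn3-8. AT2G41440, annotated as an agamous-like MADS-box protein, had 2.42, 2.32 and 1.76 CPM in dxo1-2 xrn3-8, against 1.46, 2.14 and 1.87 CPM in dxo1-2, 20.6, 16.3 and 20.9 CPM in xrn3-8 and 1.52, 1.55 and 1.57 CPM in Col-0, with an interaction of -3.38 (SE 0.233, adjusted p = 2.78e-06). All xrn3-8 libraries stood above the other 9. TAF4B (AT1G27720), a subunit of the general transcription factor TFIID, averaged 3.22 ± 0.272 CPM in dxo1-2 xrn3-8, 1.91 ± 0.212 CPM in dxo1-2, 14.6 ± 4.92 CPM in xrn3-8 and 1.43 ± 0.532 CPM in Col-0 (SD, n = 3 each), with an interaction of -2.59 (SE 0.372, adjusted p = 0.000287). AT4G02760, annotated as an RNI-like protein, and IRT3 (AT1G60960), a metal ion transporter, were also highest in xrn3-8, at -2.46 (SE 0.219, adjusted p = 1.33e-05) and -1.98 (SE 0.239, adjusted p = 8.5e-05).

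For 2 of the lowest genes the interaction depends on how changes are combined. UNE15 (AT4G13560), a late embryogenesis abundant protein, had 1.84, 1.82 and 1.87 CPM in dxo1-2 xrn3-8, against 14.1, 12.7 and 14.3 CPM in dxo1-2, 19.1, 26.2 and 22.4 CPM in xrn3-8 and 30.7, 36.3 and 36.1 CPM in Col-0. The double mutant lay below both single mutants, which lay below Col-0, and the interaction was -2.29 (SE 0.162, adjusted p = 2.88e-06). Its double mutant mean of 1.84 CPM compares with 9.01 CPM if log2 changes added and 1.91 CPM if the losses in CPM added. AT1G07050, a CCT motif gene, had 46.1, 48.2 and 35.9 CPM in dxo1-2 xrn3-8, against 10.1, 10.5 and 14.6 CPM in dxo1-2, 35.3, 48.4 and 48.0 CPM in xrn3-8 and 2.19, 1.90 and 1.55 CPM in Col-0, with an interaction of -2.65 (SE 0.249, adjusted p = 1.66e-05). The double mutant overlapped xrn3-8, and its mean of 43.4 CPM compares with 272 CPM if log2 changes added and 53.7 CPM if changes in CPM added.

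Read the other way, the interaction says that a mutation acted differently with and without the other. Of all tested genes 42.1% passed for dxo1-2 against Col-0, 34.4% for xrn3-8 against Col-0 and 46.4% for dxo1-2 xrn3-8 against Col-0, which share the Col-0 libraries. On the mutant backgrounds, 43.5% passed for dxo1-2 xrn3-8 against xrn3-8, the effect of dxo1-2, and 31.8% for dxo1-2 xrn3-8 against dxo1-2, the effect of xrn3-8. Among the 4584 genes, dxo1-2 changed a gene past the threshold in opposite directions on the xrn3-8 and Col-0 backgrounds in 661 (14.4%), of which 376 were higher on xrn3-8 and lower on Col-0 and 285 the reverse. It passed the test on the xrn3-8 background only in 1686 (36.8%) and on Col-0 only in 1482 (32.3%), and went the same way on both in 649 (14.2%). For xrn3-8 the direction was opposite on the dxo1-2 and Col-0 backgrounds in 683 genes (14.9%), with 420 higher on dxo1-2 and lower on Col-0 and 263 the reverse. It passed on the dxo1-2 background only in 1458 (31.8%), on Col-0 only in 1813 (39.6%) and the same way on both in 422 (9.21%). The interaction is the difference between the effects on both backgrounds, so choosing genes by it favours opposite and single-background effects. This split was not counted over all tested genes, so it describes the calls and does not test them. The effects of both mutations share libraries, so their reversals are not separate observations. Both mutations changed direction in 257 genes, 142 with a positive and 115 with a negative interaction. EARLI1 was among them: dxo1-2 changed it by 2.83 (adjusted p = 7.34e-08) on xrn3-8 and -1.99 (adjusted p = 1.65e-06) on Col-0, and xrn3-8 by 3.32 (adjusted p = 1.07e-07) on dxo1-2 and -1.5 (adjusted p = 2.37e-05) on Col-0.

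All 23 genes of mitosis and cytokinesis examined had a negative interaction past the threshold, beside 8.67% of all genes, with a median of -1.36. The list was drawn up after CDC20.1 had been seen among the 12 lowest genes, so its count describes these genes and is no independent evidence. CDC20.1 (AT4G33270), an activator of the anaphase-promoting complex, had 6.40, 5.22 and 5.75 CPM in dxo1-2 xrn3-8, against 11.8, 9.82 and 8.76 CPM in dxo1-2, 12.8, 12.8 and 12.2 CPM in xrn3-8 and 5.71, 5.92 and 5.83 CPM in Col-0. Both single mutants lay above Col-0 in every library and the double mutant overlapped Col-0, for an interaction of -1.92 (SE 0.161, adjusted p = 9.53e-06). The mitotic cyclin gene CYCB1;2 (AT5G06150) had 8.51, 9.19 and 9.19 CPM in dxo1-2 xrn3-8, against 17.9, 14.9 and 13.4 CPM in dxo1-2, 13.9, 17.1 and 15.7 CPM in xrn3-8 and 8.58, 7.78 and 6.97 CPM in Col-0, in the same order, with -1.78 (SE 0.166, adjusted p = 1.66e-05). The interaction was -2.03 (SE 0.407, adjusted p = 0.00299) for CYCB2;1 (AT2G17620), another B-type cyclin, and -1.79 (SE 0.204, adjusted p = 5.69e-05) for the spindle assembly factor TPX2 (AT1G03780).

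Summed over the 23 genes, the level was 102, 100 and 88.4 CPM in dxo1-2 xrn3-8, against 158, 135 and 135 CPM in dxo1-2, 173, 204 and 183 CPM in xrn3-8 and 110, 108 and 95.9 CPM in Col-0. The single mutants lay above both other genotypes in all libraries, and the double mutant and Col-0 overlapped. Gene by gene, 1 rose and 2 fell in dxo1-2 xrn3-8 against Col-0, beside 24.4% and 22% of all genes. In dxo1-2 12 rose, beside 21.5% of all genes, and in xrn3-8 20, beside 16.3%. In 12 genes, beside 1.81% of all tested genes, both single mutants lay above Col-0 with the double mutant overlapping it. The list covers stages from entry into mitosis to cytokinesis. MAD2 (AT3G25980) of the spindle checkpoint gave -1.62 (adjusted p = 9.99e-05), the aurora kinase AUR1 (AT4G32830) -1.41 (adjusted p = 0.00043), and the cytokinesis syntaxin KN (AT1G08560) -1.53 (adjusted p = 1.27e-05). HIK (AT1G18370), a kinesin of cytokinesis, gave -1.42 (adjusted p = 0.000152) and PLE (AT5G51600), a microtubule bundling protein, -1.35 (adjusted p = 0.000207). These 5 were chosen from the list after their values were seen. AT3G02640, the uncharacterized gene next to CDC20.1 in size, had the same order of levels and an interaction of -1.92 (SE 0.181, adjusted p = 1.69e-05). The count was 18 without dxo1-2 replicate 1, 21 with the replicate number as a block and 23 with upper quartile scaling. Among the 12 fits without 1 library it was 23 only without Col-0 replicate 2. The members that passed least often did so in 4 of these 12 fits.

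**Figure D4:**
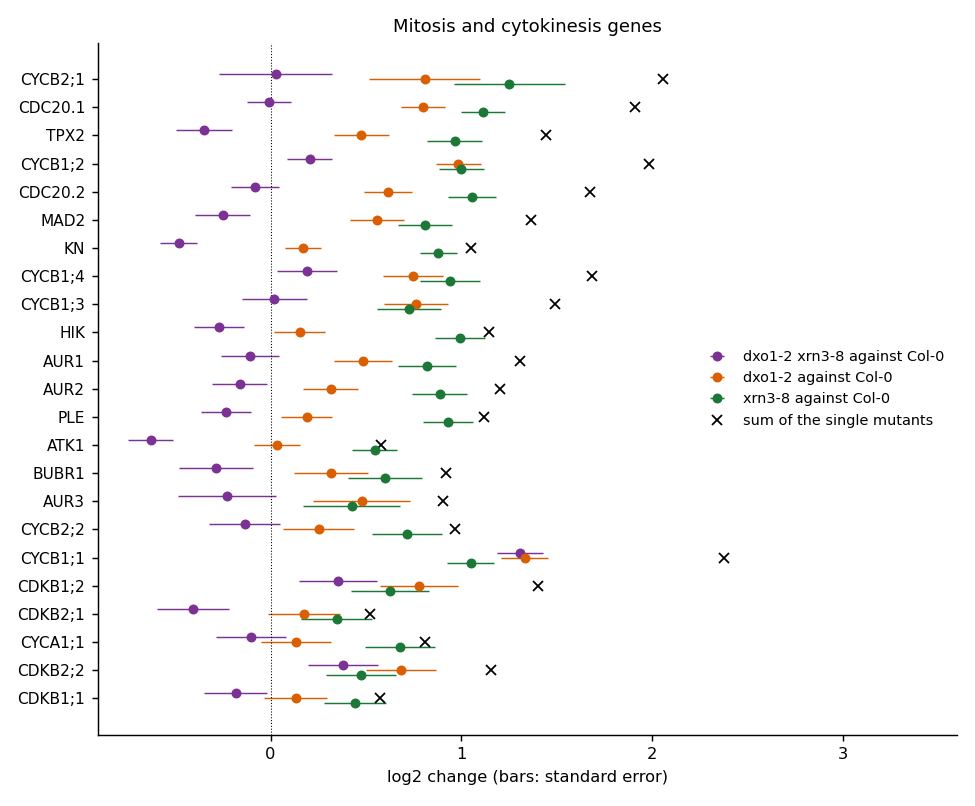
For each of 23 genes of mitosis and cytokinesis (y axis), points with SE bars give the log2 change against Col-0 (x axis) in dxo1-2 xrn3-8, dxo1-2 and xrn3-8, and the cross is the sum of the single mutant changes. The double mutant lay left of the cross in every gene, and most double mutant points lay near 0.

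Fewer of the DNA replication genes passed the test. Of 13 genes, 8 had a negative interaction, beside 8.67% of all genes, and the median was -0.56. MCM4 (AT2G16440), a subunit of the replicative helicase, gave -0.98 (SE 0.145, adjusted p = 0.000361), and CDT1A (AT2G31270), which loads that helicase, -0.95 (SE 0.150, adjusted p = 0.000596). MCM4 averaged 8.99 ± 0.379 CPM in dxo1-2 xrn3-8, 13.1 ± 0.361 CPM in dxo1-2, 12.1 ± 1.94 CPM in xrn3-8 and 8.94 ± 0.0403 CPM in Col-0. CDT1A averaged 9.43 ± 1.04 CPM in dxo1-2 xrn3-8, 11.6 ± 0.830 CPM in dxo1-2, 14.6 ± 1.44 CPM in xrn3-8 and 9.30 ± 0.690 CPM in Col-0 (SD, n = 3 each). In both the double mutant overlapped Col-0 and the single mutants lay above it. Without Col-0 replicate 3 the count was 5. The 2 markers of the shoot meristem, STM and WUS, summed to 3.24 to 3.89 CPM in dxo1-2 xrn3-8, 3.81 to 5.31 CPM in dxo1-2, 2.53 to 2.78 CPM in xrn3-8 and 2.01 to 3.13 CPM in Col-0, with no interaction past the threshold in the 1 that could be tested, and their part in the result was not tested. In 13 secondary cell wall genes, a list also added afterwards, 2 were negative, beside 8.67% of all genes, with a median of -0.08, CESA4 (AT5G44030), a cellulose synthase subunit, at -1.79 (SE 0.167, adjusted p = 1.66e-05) and IRX3 (AT5G17420), another, at -0.69 (SE 0.194, adjusted p = 0.0211). IRX3 did not pass without dxo1-2 xrn3-8 replicate 2 or xrn3-8 replicate 3.

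**Figure D5:**
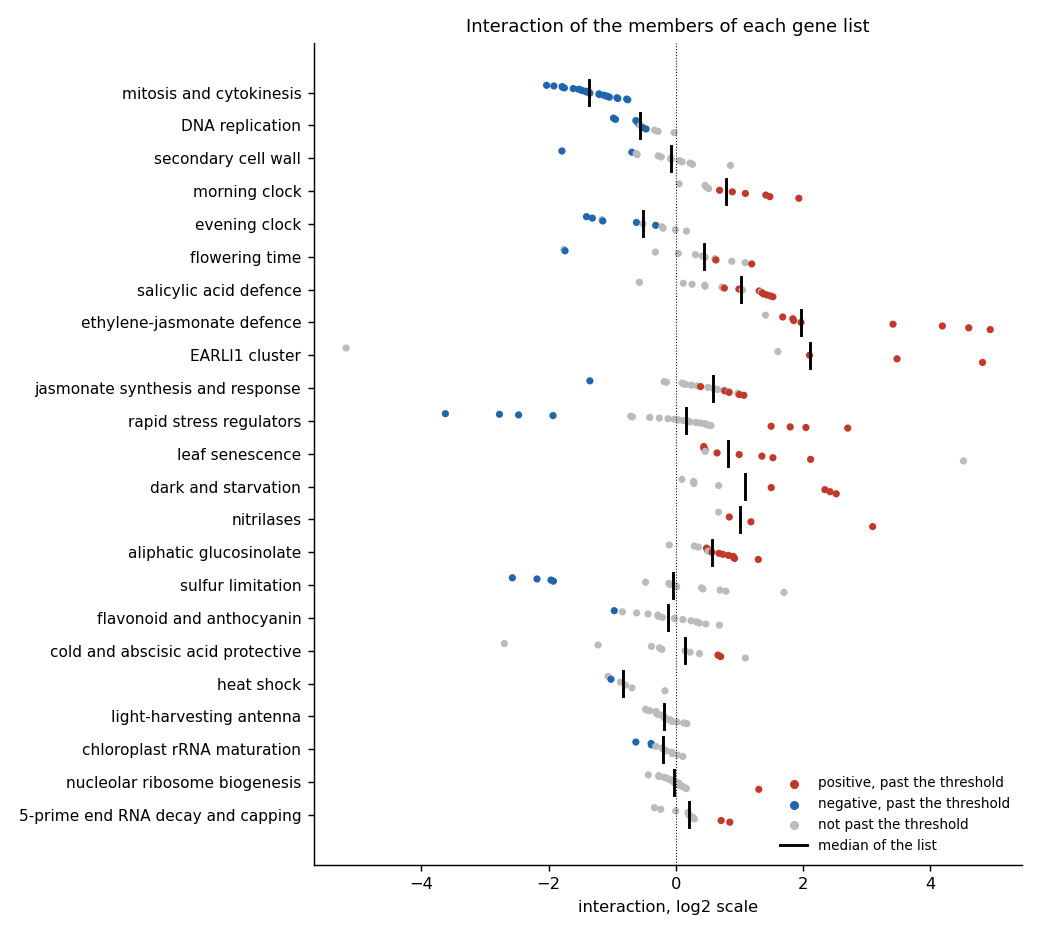
Each point is the interaction of 1 tested gene (x axis, log2) in the named gene list (y axis), coloured by whether it passed the threshold, with a mark at the list's median. All 23 mitosis genes lay below 0, all 9 ethylene-jasmonate defence genes above 0, and the 20 light-harvesting genes passed in neither direction.

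Of 16 salicylic acid defence genes 11 fell in dxo1-2 xrn3-8, 15 in dxo1-2 and 10 in xrn3-8 against Col-0, beside 22%, 20.7% and 18.1% of all genes. Of the 16, 8 had a positive interaction and none a negative one, beside 12.2% and 8.67% of all genes, with a median of 1.02. They include SARD1 (AT1G73805) and CBP60G (AT5G26920), transcription factors that switch on salicylic acid synthesis, and PBS3 (AT5G13320), an enzyme of that synthesis. SARD1 had 25.1, 24.5 and 20.6 CPM in dxo1-2 xrn3-8, against 13.8, 14.2 and 15.4 CPM in dxo1-2, 54.0, 51.6 and 53.0 CPM in xrn3-8 and 95.4, 81.0 and 77.8 CPM in Col-0. Each mutant library lay below each Col-0 library, dxo1-2 lowest, and the double mutant between the single mutants, with an interaction of 1.38 (SE 0.132, adjusted p = 1.92e-05). CBP60G gave 1.43 (SE 0.149, adjusted p = 2.99e-05), PBS3 1.52 (SE 0.341, adjusted p = 0.00595) and PR2 (AT3G57260), a glucanase and marker of this pathway, 1.48 (SE 0.446, adjusted p = 0.0296). PR2 did not pass without Col-0 replicate 1, Col-0 replicate 2, dxo1-2 xrn3-8 replicate 3, dxo1-2 replicate 1 or dxo1-2 replicate 2, at an adjusted p of up to 0.0683. PR1 (AT2G14610), the best known marker, did not pass at -0.58 (adjusted p = 0.461). The list as a whole was not high in the double mutant, with 459, 477 and 582 CPM in dxo1-2 xrn3-8, against 387, 384 and 414 CPM in dxo1-2, 765, 470 and 682 CPM in xrn3-8 and 989, 821 and 860 CPM in Col-0.

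Of 9 genes driven jointly by ethylene and jasmonate 8 were positive, beside 12.2% of all genes, with a median of 1.97. The count was 6 without Col-0 replicate 2 or dxo1-2 replicate 1, and 7 with upper quartile scaling. PDF1.2 (AT5G44420), a plant defensin, had 6.25, 7.07 and 4.16 CPM in dxo1-2 xrn3-8, against 0.141, 0.204 and 0.887 CPM in dxo1-2, 5.94, 1.96 and 10.5 CPM in xrn3-8 and 10.8, 13.8 and 7.04 CPM in Col-0. Its dxo1-2 libraries were far below all others, the double mutant overlapped xrn3-8 and Col-0, and the interaction was 4.60 (SE 0.794, adjusted p = 0.00111). The related PDF1.3 (AT2G26010) gave 3.41 (SE 0.750, adjusted p = 0.00539), the chitinase CHI-B (AT3G12500) 1.97 (SE 0.465, adjusted p = 0.00834) and PR4 (AT3G04720), a chitin-binding protein, 1.85 (SE 0.346, adjusted p = 0.00192). The list summed to 49.6, 56.5 and 73.2 CPM in dxo1-2 xrn3-8, 14.7, 22.8 and 22.9 CPM in dxo1-2, 56.4, 27.3 and 58.8 CPM in xrn3-8 and 58.5, 66.2 and 61.0 CPM in Col-0, so dxo1-2 was the genotype apart. Copies of PDF1.2 are alike in sequence, and reads that fit several of them were not counted. Levels of single copies are therefore uncertain, and the copies may not be independent.

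Jasmonate synthesis and response genes divided differently. Of 21 tested, 5 were positive and 1 negative, beside 12.2% and 8.67% of all genes, with a median of 0.59, and the repressor genes JAZ9 (AT1G70700) and JAZ6 (AT1G72450) gave 1.07 (SE 0.165, adjusted p = 0.000498) and 0.84 (SE 0.255, adjusted p = 0.031). LOX4 (AT1G72520), a lipoxygenase of the synthesis, gave 1.0 (SE 0.338, adjusted p = 0.0499), and VSP2 (AT5G24770), a storage protein of the response, -1.35 (SE 0.420, adjusted p = 0.0339). The positive count was 1 without Col-0 replicate 3, 1 without dxo1-2 replicate 1 and 1 with upper quartile scaling, and 8 without dxo1-2 replicate 3, so it rests on single libraries. Of the 12 fits without 1 library, JAZ6 passed in 5, LOX4 in 2 and VSP2 in 5. The 24 rapid stress regulators held 4 positive and 4 negative genes, beside 12.2% and 8.67% of all genes. Their negative count was 3 to 5 when 1 library was left out and 5 with upper quartile scaling. WRKY18 (AT4G31800), a defence regulator, had 174, 196 and 138 CPM in dxo1-2 xrn3-8, against 71.2, 108 and 169 CPM in dxo1-2, 55.5, 68.1 and 48.5 CPM in xrn3-8 and 243, 221 and 303 CPM in Col-0, with 2.70 (SE 0.343, adjusted p = 0.000123), while CBF1 (AT4G25490), a neighbour of CBF2, gave -2.77 (SE 0.552, adjusted p = 0.00287) and ERF109 (AT4G34410), a redox-responsive factor, -2.47 (SE 0.742, adjusted p = 0.0292). On average xrn3-8 was the lowest genotype for WRKY18 and dxo1-2 the highest for CBF1 and ERF109. ERF109 passed in 6 of the 12 fits without 1 library. CBF3 (AT4G25480), related to CBF1 and CBF2, passed in none of these fits.

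The EARLI1 cluster is a run of related genes on the same chromosome, of which 5 of 9 could be tested and 3 were positive, beside 12.2% of all genes. Beside EARLI1, AZI1 (AT4G12470), which primes systemic immunity, had 21.1, 21.0 and 20.8 CPM in dxo1-2 xrn3-8, against 2.93, 2.86 and 3.47 CPM in dxo1-2, 10.7, 13.2 and 11.1 CPM in xrn3-8 and 8.56, 5.26 and 8.34 CPM in Col-0, with an interaction of 2.1 (SE 0.219, adjusted p = 2.89e-05). AT4G12490 gave 3.48 (SE 0.519, adjusted p = 0.000394), and the 3 positive genes passed in every fit without 1 library. In all 3 the double mutant lay above the other 9 libraries. The other tested members of the cluster did not pass, and 1 of them had a value below 0, at -5.18. Reads that fit several of these copies were not counted, so levels of single members are uncertain. Among 4 nitrilases 3 were positive, beside 12.2% of all genes, and passed in every fit without 1 library, NIT1 (AT3G44310) at 0.84 (SE 0.162, adjusted p = 0.0024) and NIT4 (AT5G22300), which detoxifies cyanoalanine, at 1.18 (SE 0.212, adjusted p = 0.00146) beside NIT2. NIT4 had 26.6, 29.0 and 39.0 CPM in dxo1-2 xrn3-8, against 13.4, 13.3 and 12.7 CPM in dxo1-2, 12.8, 10.4 and 15.8 CPM in xrn3-8 and 13.3, 11.4 and 12 CPM in Col-0, with all double mutant libraries above the other 9.

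The summed level of the leaf senescence genes was highest in the double mutant. Of 10 genes 8 were positive and none negative, beside 12.2% and 8.67% of all genes, with a median of 0.82. In 5 of the 10, beside 7.31% of all tested genes, the double mutant lay above all other libraries. The summed level of the 10 was 449, 460 and 473 CPM in dxo1-2 xrn3-8, against 204, 214 and 221 CPM in dxo1-2, 352, 314 and 353 CPM in xrn3-8 and 267, 233 and 260 CPM in Col-0. The groups did not overlap, with dxo1-2 lowest and the double mutant highest. ORE1 (AT5G39610), a NAC factor that promotes senescence, had 33.1, 34.2 and 29.5 CPM in dxo1-2 xrn3-8, against 12.4, 11.6 and 11.5 CPM in dxo1-2, 19.7, 17.9 and 23.1 CPM in xrn3-8 and 15.5, 13.8 and 15 CPM in Col-0, with 0.99 (SE 0.138, adjusted p = 0.000223). NYE1 (AT4G22920) and NYE2 (AT4G11910), the stay-green proteins that start chlorophyll breakdown, gave 1.35 (SE 0.141, adjusted p = 2.89e-05) and 1.52 (SE 0.319, adjusted p = 0.00395). SAG13 (AT2G29350), a dehydrogenase used as a senescence marker, gave 2.12 (SE 0.439, adjusted p = 0.00381). The positive count was 6 without replicate 2 or replicate 3 of Col-0, of dxo1-2 or of xrn3-8, and 6 with upper quartile scaling.

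Dark-inducible and sugar starvation genes were positive in 4 of 8, beside 12.2% of all genes, with a median of 1.08. SEN1 (AT4G35770), which is induced by darkness and age, had 78.9, 51.0 and 52.9 CPM in dxo1-2 xrn3-8, against 20.7, 24.3 and 16.2 CPM in dxo1-2, 50.6, 52.2 and 52.1 CPM in xrn3-8 and 99.1, 79.9 and 118 CPM in Col-0. All mutants lay below Col-0 in SEN1, dxo1-2 lowest, and the interaction was 2.52 (SE 0.251, adjusted p = 2.28e-05). BCAT2 (AT1G10070), an enzyme of branched-chain amino acid breakdown, gave 1.5 (SE 0.292, adjusted p = 0.00251). DIN2 (AT3G60140), a beta-glucosidase, was higher in the double mutant at 72.2 ± 11.4 CPM than in dxo1-2 at 2.75 ± 2.17 CPM, xrn3-8 at 6.74 ± 0.0494 CPM and Col-0 at 1.29 ± 1.29 CPM (SD, n = 3 each), with an interaction of 2.34 (SE 0.722, adjusted p = 0.0329). The count was 2 without Col-0 replicate 1, dxo1-2 xrn3-8 replicate 2, dxo1-2 replicate 1, dxo1-2 replicate 2 or xrn3-8 replicate 1. DIN2 passed in 6 of the 12 fits without 1 library, where its interaction ranged from 1.08 to 3.19.

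Circadian clock genes showed opposite signs by phase. Of 10 morning genes 6 were positive and none negative, with a median of 0.79, and of 11 evening genes 5 were negative and none positive, with a median of -0.52, beside 12.2% positive and 8.67% negative of all genes. LHY (AT1G01060), a morning repressor of evening genes, had 15.1, 24.9 and 25.6 CPM in dxo1-2 xrn3-8, against 33.0, 27.4 and 27.3 CPM in dxo1-2, 7.74, 6.55 and 6.96 CPM in xrn3-8 and 36.3, 30.0 and 41.9 CPM in Col-0. The xrn3-8 libraries were the lowest, and the interaction was 1.93 (SE 0.245, adjusted p = 0.000123). Its partner CCA1 (AT2G46830) had 25.7, 33.7 and 33.1 CPM in dxo1-2 xrn3-8, against 61.9, 58.2 and 52.1 CPM in dxo1-2, 12.7, 13.4 and 11.2 CPM in xrn3-8 and 68.2, 54.4 and 70.3 CPM in Col-0, with 1.48 (SE 0.172, adjusted p = 6.38e-05). The activator RVE8 (AT3G09600) and its coactivator LNK2 (AT3G54500) gave 1.41 (SE 0.312, adjusted p = 0.0055) and 1.09 (SE 0.163, adjusted p = 0.000385).

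Of the 11 evening genes 10 rose in dxo1-2 xrn3-8, 8 in dxo1-2 and 9 in xrn3-8 against Col-0, beside 24.4%, 21.5% and 16.3% of all genes. LUX (AT3G46640), of the evening complex, had 27.9, 24.1 and 29.6 CPM in dxo1-2 xrn3-8, against 12.9, 16.4 and 16.1 CPM in dxo1-2, 29.1, 24.7 and 25.6 CPM in xrn3-8 and 6.46, 7.86 and 5.48 CPM in Col-0. Its double mutant overlapped xrn3-8, both above dxo1-2, and the interaction was -1.15 (SE 0.184, adjusted p = 0.000645). BOA (AT5G59570), the close relative of LUX, gave -1.41 (SE 0.430, adjusted p = 0.0316) and GI (AT1G22770), a protein of light and clock signalling, -0.62 (SE 0.139, adjusted p = 0.00595). FKF1 (AT1G68050), a blue light receptor, gave -1.31 (SE 0.225, adjusted p = 0.00104), yet its double mutant mean of 32.3 CPM exceeded the 28.2 CPM expected if changes in CPM added and lay below the 79.9 CPM expected if log2 changes added. BOA did not pass without Col-0 replicate 3, dxo1-2 xrn3-8 replicate 2, dxo1-2 xrn3-8 replicate 3, dxo1-2 replicate 2 or xrn3-8 replicate 3. The evening count was 3 without Col-0 replicate 3, dxo1-2 xrn3-8 replicate 2 or dxo1-2 replicate 2. No label gives an hour of harvest.

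The summed level of the aliphatic glucosinolate genes was lowest in xrn3-8. Of 15 genes 11 had a positive interaction, beside 12.2% of all genes, with a median of 0.57, and 14 fell in xrn3-8 against Col-0, beside 18.1%. The list summed to 1238, 1238 and 1418 CPM in dxo1-2 xrn3-8, 1370, 1430 and 1403 CPM in dxo1-2, 790, 747 and 788 CPM in xrn3-8 and 1159, 1204 and 1471 CPM in Col-0. The xrn3-8 libraries lay below all 9 others, which overlapped. SOT17 (AT1G18590), a sulfotransferase of the last step of the core structure, had 76.0, 79.0 and 83.6 CPM in dxo1-2 xrn3-8, against 85.1, 86.2 and 95.6 CPM in dxo1-2, 22, 18.9 and 21.0 CPM in xrn3-8 and 54.0, 52.1 and 63.4 CPM in Col-0, with 1.29 (SE 0.126, adjusted p = 2.01e-05). SOT18 (AT1G74090), of the same step, gave 0.90 (SE 0.196, adjusted p = 0.00516), BCAT4 (AT3G19710), of the chain elongation of methionine, 0.90 (SE 0.127, adjusted p = 0.00024), and MYB76 (AT5G07700), a regulator of the pathway, 0.92 (SE 0.207, adjusted p = 0.00597). The count was 8 without Col-0 replicate 3 or dxo1-2 replicate 1, and 8 with upper quartile scaling.

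None of 20 light-harvesting antenna genes passed, with a median of -0.19, although 18 fell in the double mutant and 16 in xrn3-8 against Col-0, beside 22% and 18.1% of all genes; LHCB1.2 (AT1G29910) gave -0.41 (adjusted p = 0.222) and LHCB4.3 (AT2G40100) -0.48 (adjusted p = 0.172). Of 19 nucleolar ribosome biogenesis genes 1 passed, beside 20.9% of all genes, NUC2 (AT3G18610), a nucleolin, at 1.3 (SE 0.360, adjusted p = 0.0197), and it did not pass without Col-0 replicate 1, dxo1-2 replicate 1 or dxo1-2 replicate 2. Of 11 chloroplast rRNA maturation genes 3 were negative, beside 8.67% of all genes, with a median of -0.20: the ribonuclease J gene RNJ (AT5G63420) at -0.63 (SE 0.125, adjusted p = 0.00283), the phosphorylase PNP (AT3G03710) at -0.39 (SE 0.106, adjusted p = 0.0178) and AT3G06980, annotated as a helicase, at -0.38 (SE 0.123, adjusted p = 0.0387). AT3G06980 passed in 4 of the 12 fits without 1 library, and the other two in all. Of the 124 plastid-encoded genes tested 1 was positive (0.806%) and 4 negative (3.23%), below the 12.2% and 8.67% of all genes, with a median of -0.14. The negative count was 0 without Col-0 replicate 3, dxo1-2 replicate 2 or xrn3-8 replicate 1, 6 without dxo1-2 xrn3-8 replicate 3 or xrn3-8 replicate 3, and 8 with upper quartile scaling or DESeq2. The positive count was 1 without dxo1-2 xrn3-8 replicate 1 or dxo1-2 replicate 1, and 0 in the other fits without 1 library.

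The sulfur limitation list had 4 negative genes of 14, beside 8.67% of all genes, with a median of -0.05, and 1 without dxo1-2 replicate 1. SULTR4;2 (AT3G12520), a vacuolar sulfate exporter, gave -1.96 (SE 0.311, adjusted p = 0.000597) and SDI1 (AT5G48850) -1.93 (SE 0.635, adjusted p = 0.0445), the last past the threshold in 3 of the 12 fits without 1 library. In flowering time 2 of 12 were positive and 1 negative, near the 12.2% and 8.67% of all genes. FLC (AT5G10140), the repressor of flowering, averaged 0.154 ± 0.0871 CPM in dxo1-2 xrn3-8, 0.283 ± 0.114 CPM in dxo1-2, 4.1 ± 0.867 CPM in xrn3-8 and 2.26 ± 0.174 CPM in Col-0 (SD, n = 3 each), with -1.74 (SE 0.494, adjusted p = 0.0222), and AGL24 (AT4G24540) and FUL (AT5G60910), MADS-box promoters of flowering, gave 0.63 (SE 0.168, adjusted p = 0.0165) and 1.19 (SE 0.367, adjusted p = 0.0328). Without dxo1-2 replicate 2 no flowering gene was positive, and without dxo1-2 xrn3-8 replicate 3 there were 7. FLC did not pass without dxo1-2 replicate 3 or xrn3-8 replicate 3, and FUL passed in 3 and AGL24 in 11 of the 12 fits without 1 library. Among 11 cold and abscisic acid protective genes 2 were positive, near the 12.2% of all genes, COR47 (AT1G20440) at 0.66 (SE 0.160, adjusted p = 0.00942) and ERD10 (AT1G20450) at 0.70 (SE 0.212, adjusted p = 0.03), both dehydrins, the second past the threshold in 6 of the 12 fits without 1 library. Of 14 flavonoid genes 1 was negative, near the 8.67% of all genes, CHS (AT5G13930), the first enzyme of the pathway, at -0.97 (SE 0.296, adjusted p = 0.0317), in 5 of the 12 fits without 1 library. Of 6 heat shock genes tested 1 was negative, beside 8.67% of all genes, HSP101 (AT1G74310), a chaperone that dissolves protein aggregates, at -1.02 (SE 0.234, adjusted p = 0.00688).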

How the data were processed

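Total RNA of 12 libraries was measured by RNA-seq. Each deposited file holds the authors' whole-number read counts per gene, not normalized. The submitters' processing notes name HISAT2 2.0.4, SAMtools 1.1, HTSeq 0.6.0 and the build TAIR10; the annotation and the use of strand are not given in the sources used here. Reads aligned to more than 1 place (9.80 to 11.2%), without a feature (6.99 to 11.1%) or ambiguous (0.900 to 1.21%) stayed out of the tests, so near-identical gene copies are uncertain. Names come from RefSeq TAIR10.1, and its gene positions and strands were used to find antisense neighbours and adjacent pairs; no coordinates are printed.

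Counts were tested with edgeR 4.0.16 in R 4.3.3 (glmQLFit, glmQLFTest) with TMM scaling, filterByExpr (minimum count 10, minimum total 15), all 12 libraries in 1 fit with 1 coefficient per genotype, and Benjamini-Hochberg adjustment over 21974 genes at 0.05. The biological coefficient of variation was 12.7%. Between replicates the chi-square per degree of freedom was 14.6 to 93.7, so each library counted as 1 replicate. SE is the log2 value divided by the square root of F. CPM are relative to the scaled library size, as mean and SD of 3 libraries. The fit was also run on simulated counts, with an outcome that is not given here. Alternatives were DESeq2 1.42.0, limma-voom 3.58.1, other scalings and filters, the replicate number as a block, and leaving out each library.

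The genes named are the 12 highest and 12 lowest interactions of at least 5 CPM on average that passed with all libraries and in all 12 fits without 1, both mutated genes, up to 4 genes of each list with the largest interaction past the threshold (up to 2 of the smallest p where none passed), and examples of each order of levels. The genes and lists were chosen with earlier results of these data known, and the lists of mitosis, DNA replication and secondary cell wall after the named genes had been seen.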

Additional observations from a re-analysis of the deposited data

Results flagged for a closer look

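The interaction is itself the test of whether an effect differs between backgrounds, so each of the 4584 genes past the threshold meets that condition. Given here are those of the 12 highest and 12 lowest genes for which a mutation passed the threshold in opposite directions on the mutant background and on Col-0. With 3 libraries per genotype, no check for a library far from the others was made within groups.

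Both mutations changed direction with the background in EARLI1 (4.82), RNS1 (4.43), TI1 (3.59), CRK13 (3.51), AT1G13340 (3.16) and ZAT7 (3.06), where each was higher on the other mutation and lower on Col-0. They did so the other way, lower on the other mutation and higher on Col-0, in AT5G35935 (-7.20), CDC20.1 (-1.92) and AT3G02640 (-1.92). The effect of dxo1-2 alone changed direction in ELI3-2 (4.52), AMY1 (3.13) and XTR6 (3.06), and in AT4G02760 (-2.46) and IRT3 (-1.98). The effect of xrn3-8 alone changed direction in AT2G05540 (3.51), ORA47 (-3.62), AT4G27657 (-2.34) and CBF2 (-1.93).

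CRK13 shows the size of such a reversal. dxo1-2 changed it by 1.63 (adjusted p = 3.45e-06) on xrn3-8 and by -1.88 (adjusted p = 9.89e-07) on Col-0, and xrn3-8 changed it by 1.88 (adjusted p = 2.8e-06) on dxo1-2 and by -1.63 (adjusted p = 5.01e-06) on Col-0. For CDC20.1 the values were -1.12 (adjusted p = 3.73e-06) and 0.80 (adjusted p = 7.64e-05) for dxo1-2, and -0.81 (adjusted p = 0.00012) and 1.11 (adjusted p = 6.18e-06) for xrn3-8. For each mutation, the effects on the mutant background and on Col-0 rest on different libraries. Across mutations they share libraries, those of the double mutant and of Col-0 among them. The reversals of both mutations are therefore not separate observations.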

How the results depend on the processing

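The count of interactions stayed within 1.5 times of 4584 under RLE size factors (4566), upper quartile scaling (4886), nuclear genes alone (4609), DESeq2 (5337), limma-voom (4502), no filter (4562) and a mean count of at least 50 (4209). All 24 highest and lowest genes passed in each of these, and no interaction of a named gene changed sign. An adjusted p under 0.01 left 2321 (1471 positive, 850 negative) and 4827 for xrn3-8 against Col-0, and an absolute log2 value of at least 1 left 1943 (1036 and 907), with 3102 for dxo1-2 xrn3-8, 2359 for dxo1-2 and 2229 for xrn3-8 against Col-0. Upper quartile scaling, which moved the median of all genes by -0.11, gave 2886 negative interactions, and 187 genes, not 284, with both single mutants below Col-0 and the double mutant overlapping it.

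Leaving out 1 library gave 3419 to 4729 interactions (1957 to 2758 positive, 1462 to 1971 negative), 8692 to 10411 genes for dxo1-2 xrn3-8, 7565 to 9618 for dxo1-2 and 6226 to 8117 for xrn3-8 against Col-0. The plastid departure was -5.27 to -2.98 percentage points, and reversed effects numbered 468 to 672 for dxo1-2 and 486 to 651 for xrn3-8. Double mutant above all others held 530 to 755 genes, below all others 332 to 527, 1 single mutant apart 449 to 747, both singles above Col-0 226 to 394, both below 218 to 326, opposite sides 64 to 105, none apart 21 to 65 (100 with all libraries) and elsewhere 1384 to 2133. The orders of level are set by the lowest and highest library of each genotype, so leaving 1 out can narrow these ranges. How much of the moves came from that, from fewer samples or from other causes was not tested.

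With the replicate number as a block, 4258 interactions passed (2534 positive, 1724 negative), 4129 of them also without it. The counts were 9874 for dxo1-2 xrn3-8, 8933 for dxo1-2 and 7213 for xrn3-8 against Col-0, and 639 and 642 reversed effects. The numbers share no stated source: of 18 pairs of same-numbered libraries 2 correlated above 0.1 in their deviations from the group means (-0.12 to 0.15, against -0.22 to 0.26 in other pairs), and 6 of 12 libraries correlated best with their own number. Low levels limit the largest values: the median size of called interactions was 2.42 in the 5494 genes of lowest mean CPM and 0.59 in the 5494 of highest.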

Other observations

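Among long non-coding RNA genes, positive interactions past the threshold were rarer than among all genes, of which 12.2% were positive and 8.67% negative. Of 485 long non-coding RNA genes tested, 51 (10.5%) were negative and 17 (3.51%) positive, and of 252 genes annotated as pseudogenes 27 (10.7%) were negative and 13 (5.16%) positive, while of 189 annotated as transcribed pseudogenes 13 (6.88%) were negative and 21 (11.1%) positive. Of 20583 protein-coding genes 1803 (8.76%) were negative and 2620 (12.7%) positive. The level of expression was not held constant in these counts, and they were not repeated with upper quartile scaling. That scaling gave 2886 negative and 2000 positive genes among all tested. Of 187 small nucleolar RNA genes, whose products guide the modification of ribosomal RNA, 1 was negative (0.535%) and 2 positive (1.07%). These shares lay below the 8.67% and 12.2% of all genes. The 103 mitochondrion-encoded genes held 1 negative (0.971%) and 2 positive (1.94%) ones, also below the shares of all genes. Each count ranged from 0 to 4 when 1 library was left out, with both at 4 without dxo1-2 xrn3-8 replicate 3. Upper quartile scaling gave 5 negative and 0 positive mitochondrion-encoded genes.

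Calls were more frequent among well-expressed genes, at 15.2% of the 5494 genes of lowest mean CPM and 25.2% of the 5494 of highest, while the median absolute value of the calls was 2.42 in the lowest and 0.59 in the highest on the log2 scale. Neighbouring genes were compared as a description of their order along the chromosome. Of all tested genes 12.2% were positive and 8.67% negative, so some pairs share a sign without any link between neighbours. The shares for pairs that are not neighbours were not computed, so those below do not say whether neighbours are alike. Of 10947 pairs of adjacent genes on the same strand with no overlap, 3.43% had both genes called with the same sign and 2.18% with opposite signs. For 4678 divergent pairs without overlap the shares were 2.61 and 1.47%, and for 3140 such convergent pairs 2.07 and 2.07%. Among overlapping pairs the shares were 3.29 and 2.06% for 486 on the same strand. They were 1.26 and 2.52% for 476 overlapping divergent pairs and 2.48 and 1.44% for 2015 overlapping convergent pairs. Gene families that lie side by side, such as the EARLI1 cluster, are among these pairs.

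Some genes chosen as examples of an order of levels had single mutants on opposite sides of Col-0 and a double mutant overlapping it. CP1 (AT5G49480), a calcium-binding protein gene, averaged 46.1 ± 7.19 CPM in dxo1-2 xrn3-8, 48.0 ± 2.62 CPM in dxo1-2, 7.39 ± 2.14 CPM in xrn3-8 and 34.2 ± 6.79 CPM in Col-0 (SD, n = 3 each), with an interaction of 2.15 (SE 0.259, adjusted p = 8.45e-05). PUB19 (AT1G60190), a U-box ubiquitin ligase, had 8.32, 8.19 and 12.1 CPM in dxo1-2 xrn3-8, against 50.6, 51.9 and 43.6 CPM in dxo1-2, 5.14, 4.67 and 5.81 CPM in xrn3-8 and 11, 8.49 and 11.6 CPM in Col-0, and an interaction of -1.36 (SE 0.218, adjusted p = 0.000641). BBX16 (AT1G73870), a B-box zinc-finger gene, gave 1.43 (SE 0.227, adjusted p = 0.000618). PS1 (AT1G34355), which acts in meiotic spindle orientation, lay below all others in the double mutant at -1.85 (SE 0.178, adjusted p = 1.92e-05).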
